A study of Mus musculus with 12 samples.

Results

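Transcript levels of 9 TNF receptor superfamily genes were followed in sorted mouse regulatory T cells (Tregs) with and without a floxed second Ezh2 allele. The genes were Tnfrsf4, Tnfrsf9, Tnfrsf18, Cd27, Tnfrsf8, Tnfrsf1b, Tnfrsf25, Tnfrsf1a and Fas, picked by symbol as the costimulators and close relatives of the family from the 23352 gene symbols measured, and all 9 were found. C57BL/6 females gave the Tregs, which were taken from lymph nodes and spleen and sorted on the surface marker CD62L into low and high cells. The 4 groups were CD62Llo and CD62Lhi Tregs of Foxp3YFP-Cre/Foxp3WT;Ezh2fl/fl mice (KO), with 3 libraries each, and CD62Llo (3 libraries) and CD62Lhi (2 libraries) Tregs of Foxp3YFP-Cre/Foxp3WT;Ezh2fl/+ mice (HET). The third HET CD62Lhi library, which its submitters set aside for too few reads, held no signal for any of the 9 genes and was left out. All 4 groups carry the YFP-Cre fusion at 1 of the 2 Foxp3 alleles and at least 1 floxed Ezh2 allele, so neither genotype is an unmodified wild type. Foxp3 is X-linked and the mice are heterozygous females, so Cre is made only in Tregs that use the tagged allele. The labels give no age, and they do not say whether the libraries came from separate animals, so the p-values measure the spread between these libraries, which may be technical.

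TNF receptor superfamily members are surface proteins that bind trimeric ligands of the TNF superfamily. Tnfrsf4 (OX40), Tnfrsf9 (CD137), Tnfrsf18 (GITR), Cd27, Tnfrsf8 (CD30) and Tnfrsf1b (TNFR2) have no death domain and signal through TRAF adaptors to the NF-kappaB pathways, which supports survival and division of activated T cells. Tnfrsf1a (TNFR1), Tnfrsf25 (DR3) and Fas carry a cytoplasmic death domain, through which they can recruit adaptors such as TRADD or FADD; Fas is the classical inducer of lymphocyte apoptosis, and DR3 costimulates Tregs when its ligand TL1A is present. Several of these receptors, among them GITR, OX40 and TNFR2, are constitutive or readily induced surface markers of Tregs.

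Ezh2, the methyltransferase subunit of Polycomb repressive complex 2, had 12.5, 16.8 and 14.5 FPKM in KO CD62Llo libraries, against 18.2, 17.8 and 20.5 FPKM in HET CD62Llo libraries. In CD62Lhi cells it had 9.15, 11.5 and 11.02 FPKM in KO libraries, against 12.7 and 12.5 FPKM in HET libraries. KO libraries were below HET libraries in both fractions without overlap, but neither difference passed the test (log2 change of -0.36, adjusted p = 0.113 in CD62Llo; -0.24, adjusted p = 1.0 in CD62Lhi). A gene-level value also counts exons outside a floxed stretch, so it does not measure the deletion itself. Foxp3, the lineage factor of Tregs, lay between 75.9 and 96.8 FPKM in all 11 libraries. The sum of 7 Treg markers was 912.5 to 1019 FPKM in KO CD62Llo and 753.8 to 783.9 FPKM in KO CD62Lhi libraries, and 1038 to 1170 FPKM in HET CD62Llo and 753 to 830.1 FPKM in HET CD62Lhi libraries, so it was higher in CD62Llo cells of both genotypes and lower in KO than in HET CD62Llo cells, without overlap. Of the 7, Ctla4, Ikzf2, Cd4 and Cd3e were called higher in CD62Llo cells of both genotypes, and none was called between KO and HET CD62Llo cells.

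Markers of other cells moved with the sort. The summed FPKM of 10 B cell markers was 28.9 to 73.8 in KO CD62Llo and 91.2 to 155 in KO CD62Lhi libraries, and 25.3 to 38.3 in HET CD62Llo and 95.01 to 115 in HET CD62Lhi libraries. The sum of 8 markers of CD8 T and NK cells was 14.3 to 21.0 in KO CD62Llo and 32.9 to 40.2 in KO CD62Lhi, and 16.2 to 19.5 in HET CD62Llo and 41.5 to 48.2 in HET CD62Lhi. Both sums were thus lower in CD62Llo cells of both genotypes. All 10 B cell markers had lower means there; of the 8 CD8 and NK markers 7 had lower means, whereas the NK receptor gene Klrb1c was called higher (log2 change of 0.85, adjusted p = 0.0277 in KO; 1.49, adjusted p = 0.00178 in HET). Myeloid markers, 9 of 10 of which were in the files, summed to 32.2 to 259 in KO CD62Llo and 14.3 to 20.1 in KO CD62Lhi, and to 48.5 to 101 in HET CD62Llo and 13.9 to 27.1 in HET CD62Lhi, with Lyz2 as their most abundant gene and 8 of the 9 higher on average in CD62Llo cells of each genotype. The list of 8 stromal and endothelial markers rested on Pecam1, which alone of them exceeded 1 FPKM, while 6 of the 8 had higher means in CD62Llo cells of each genotype. Its sum was 51.1 to 56.3 in KO CD62Llo and 68.4 to 78.7 in KO CD62Lhi, and 37.5 to 40.9 in HET CD62Llo and 67.3 to 72.2 in HET CD62Lhi. Red cell and platelet markers spread from 4.14 to 228 without following the groups, and plasma cell markers, led by Xbp1, summed to 29.1 to 37.9 in KO CD62Llo and 28.9 to 29.3 in KO CD62Lhi, and to 40.1 to 48.2 in HET CD62Llo and 29.05 to 31.1 in HET CD62Lhi. None of the markers in the files was at 0 in all 11 libraries. These are bulk samples, in which fewer cells of a type and less RNA per cell cannot be told apart, and the part of admixed cells in the receptor differences was not tested.

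**Figure D1:**
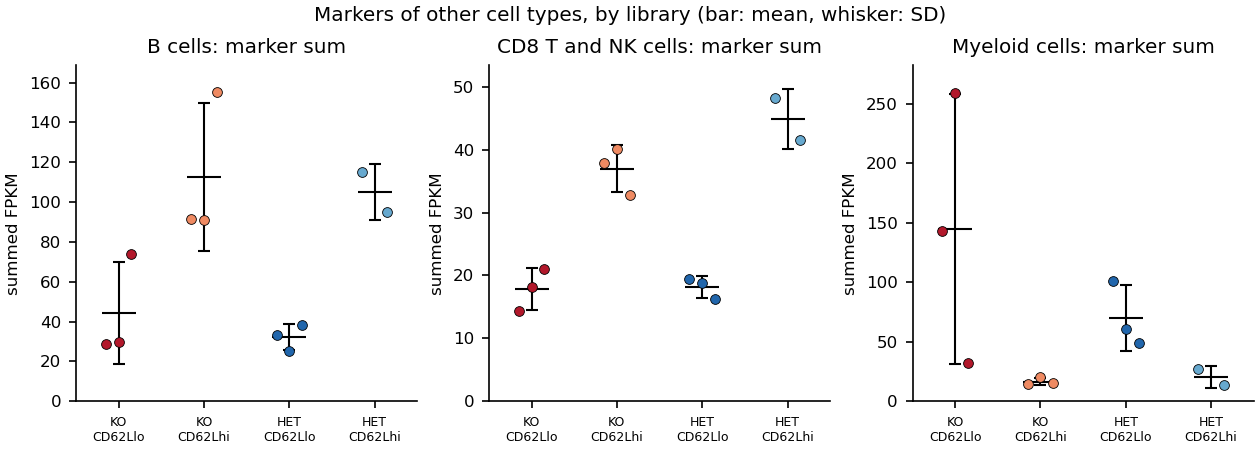
Summed FPKM of the marker lists of B cells, CD8 T and NK cells and myeloid cells in each of the 11 libraries by group (points), with group mean (bar) and SD (whisker). B cell and CD8 or NK sums lie lower and myeloid sums higher in CD62Llo than in CD62Lhi cells of both genotypes.

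All 9 receptors were detected in every one of the 11 libraries. Cd27 was the most abundant in each group, averaging 239 ± 19.8 FPKM in KO CD62Llo, 212 ± 18.7 in KO CD62Lhi and 249 ± 7.9 in HET CD62Llo (SD, n = 3 each), and 227 ± 8.79 in HET CD62Lhi (SD, n = 2). Tnfrsf18 and Tnfrsf4 followed; their order was clear in 3 groups, with Tnfrsf18 above Tnfrsf4, whereas in HET CD62Llo cells Tnfrsf18 averaged 216 ± 15.5 FPKM and Tnfrsf4 216 ± 23.3 FPKM, and they overlapped. Tnfrsf1a was the second lowest in every group, at 13.1 to 20.9 FPKM. Tnfrsf8 was last, at 3.21 to 6.89 FPKM in the 6 CD62Llo libraries and 0.218 to 0.407 FPKM in the 5 CD62Lhi libraries. The middle of the order changed with the fraction. In HET CD62Llo cells Tnfrsf1b and Tnfrsf9 overlapped each other and both stood above Tnfrsf25, and in KO CD62Llo cells these 3 genes formed a run in which neighbours overlapped. In the CD62Lhi cells of both genotypes Tnfrsf25 stood alone in the fourth place, and Fas, Tnfrsf9 and Tnfrsf1b followed as overlapping neighbours. FPKM divides by transcript length, so these are levels that can be set side by side between genes.

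**Figure D2:**
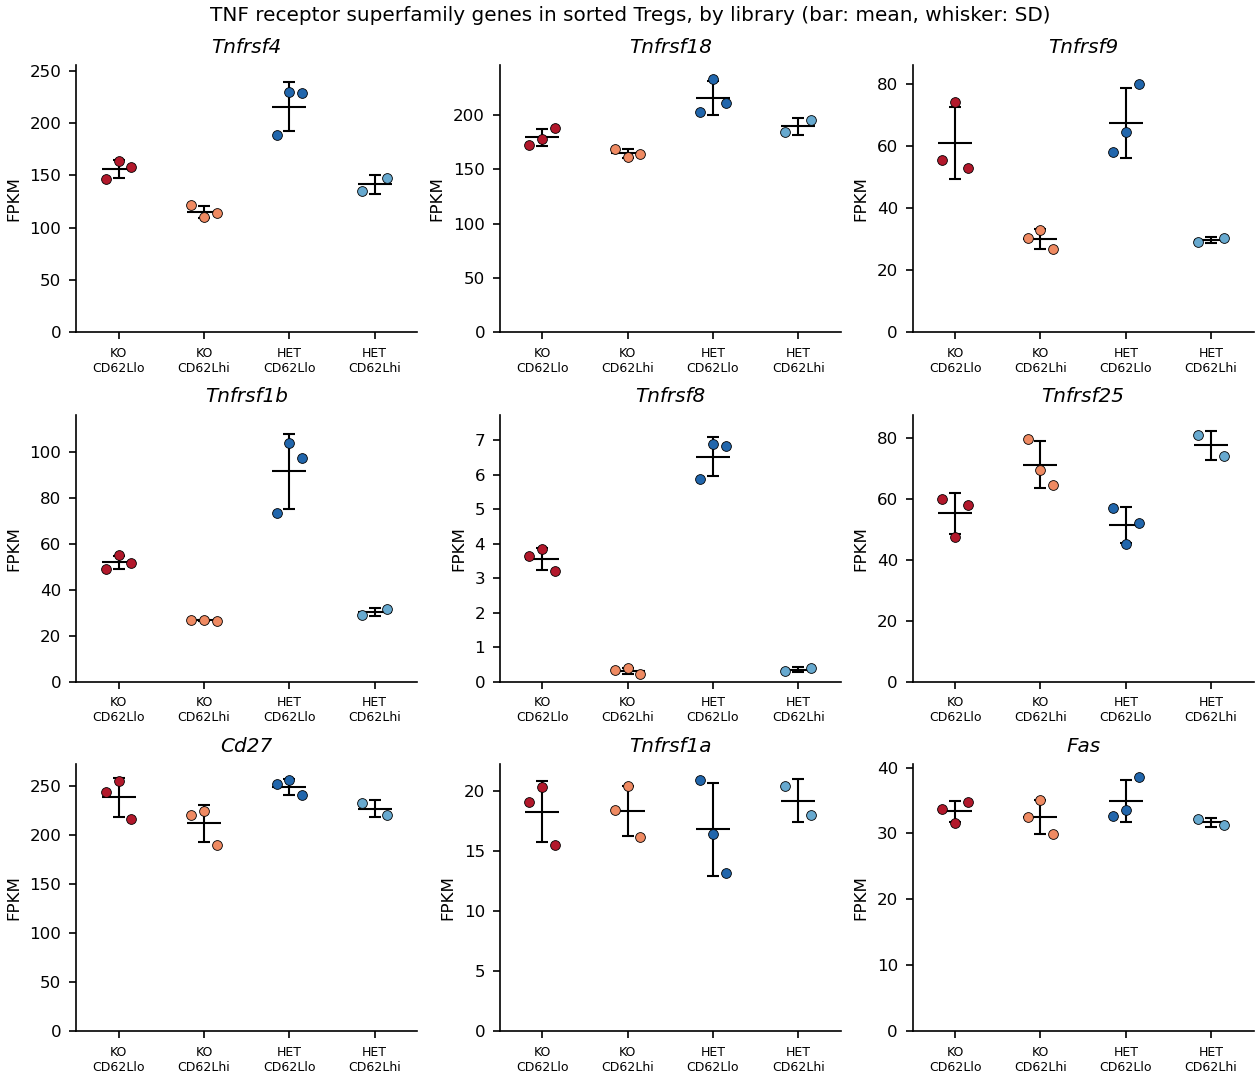
FPKM of the 9 receptor genes in each of the 11 libraries (points), in KO CD62Llo, KO CD62Lhi, HET CD62Llo and HET CD62Lhi Tregs, with group mean (bar) and SD (whisker); every axis starts at 0. Tnfrsf9, Tnfrsf1b and Tnfrsf8 separate CD62Llo from CD62Lhi cells widely in both genotypes, and Tnfrsf1b and Tnfrsf8 also separate KO from HET CD62Llo cells, whereas the groups of Tnfrsf1a overlap in each comparison.

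The family is clustered in the genome. In mm10, the build of the files, 6 of the 9 genes lie on chromosome 4, with 2 on chromosome 6 (Cd27 and Tnfrsf1a) and Fas on chromosome 19. Tnfrsf8 (chr4:145268976-145315147, minus strand) and Tnfrsf1b (chr4:145212368-145246870, minus strand) are neighbours with 22105 bases and no protein-coding gene between them. Tnfrsf4 (chr4:156013695-156016589, plus strand) and Tnfrsf18 (chr4:156026342-156028891, plus strand) are neighbours with a gap of 9752 bases and again no coding gene between. Tnfrsf9 spans chr4:150920155-150946102 and Tnfrsf25 chr4:152116343-152120111, both on the plus strand. Some genes overlap other annotated genes, namely Tnfrsf9 with Camta1 on the opposite strand, Tnfrsf18 with the antisense gene Gm16008, Cd27 with Vamp1 and Mir8113, and Fas with Gm27818. No source used here gives the strand setting of the counting, so reads of these overlapping genes cannot be told apart; Camta1 itself was at 1.32 to 2.39 FPKM and Vamp1 at 13.2 to 19.6 FPKM, and neither passed any test of the 5 contrasts.

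Promoters are shown for the 4 receptors called higher in CD62Llo than in CD62Lhi cells of both genotypes (values follow). Tnfrsf8 and Tnfrsf1b have a match to the NF-kappaB letters, and Tnfrsf9 and Tnfrsf4 do not. Such a match is common, at 46.0% of all promoter windows, so it does not set these genes apart. Each sequence is the 250 bases before the RefSeq start (GRCm38.p6), 5′ to 3′ on the gene's strand: chr4:145315165-145315414 (minus) for Tnfrsf8, chr4:145246871-145247120 (minus) for Tnfrsf1b, chr4:150919905-150920154 (plus) for Tnfrsf9 and chr4:156013445-156013694 (plus) for Tnfrsf4. Capitals mark the letters GGGNNNNNCC, on either strand and with overlapping matches merged, in Tnfrsf8 and Tnfrsf1b, and the letters TGGAAA of NFAT, on either strand, in Tnfrsf9 and Tnfrsf4.
Tnfrsf8: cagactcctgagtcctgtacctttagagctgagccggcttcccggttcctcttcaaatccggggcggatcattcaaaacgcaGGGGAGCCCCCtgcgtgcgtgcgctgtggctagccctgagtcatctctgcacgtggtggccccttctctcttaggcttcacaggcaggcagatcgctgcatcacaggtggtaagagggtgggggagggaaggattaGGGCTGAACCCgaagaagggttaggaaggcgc
Tnfrsf1b: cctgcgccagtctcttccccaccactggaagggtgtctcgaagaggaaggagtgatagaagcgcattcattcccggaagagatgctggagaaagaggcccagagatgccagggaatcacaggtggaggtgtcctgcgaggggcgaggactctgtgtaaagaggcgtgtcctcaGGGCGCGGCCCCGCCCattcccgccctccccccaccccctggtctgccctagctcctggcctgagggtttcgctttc
Tnfrsf9: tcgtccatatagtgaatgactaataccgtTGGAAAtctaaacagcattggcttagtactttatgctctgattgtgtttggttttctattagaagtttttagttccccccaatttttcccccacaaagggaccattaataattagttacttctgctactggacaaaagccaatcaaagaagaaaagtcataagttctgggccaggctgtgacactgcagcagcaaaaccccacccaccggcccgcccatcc
Tnfrsf4: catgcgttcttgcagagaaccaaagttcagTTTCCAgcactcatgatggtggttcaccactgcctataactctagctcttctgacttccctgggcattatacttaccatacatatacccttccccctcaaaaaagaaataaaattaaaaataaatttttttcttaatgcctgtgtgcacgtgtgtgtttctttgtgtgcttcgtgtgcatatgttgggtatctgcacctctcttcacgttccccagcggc
GGGNNNNNCC was found in 6 of the 9 promoters (Tnfrsf8, Tnfrsf1b, Tnfrsf25, Tnfrsf1a, Cd27 and Fas) and in 46.0% of 32526 promoter windows of the same length. TGGAAA was found in Tnfrsf9 and Tnfrsf4 and in 18.6% of all windows. The AP-1 letters TGANTCA were found in Tnfrsf8 and Fas and in 6.73% of all windows, and the forkhead letters TGTTTAC in none of the 9 and in 3.17% of all. The matches describe these letters only. The observed-over-expected CpG ratio was 0.11 to 0.55 in the 9 windows, with 0.38 as the median of all windows.

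CD62Llo Tregs had higher transcript levels of Tnfrsf8, Tnfrsf1b, Tnfrsf9 and Tnfrsf4 than CD62Lhi Tregs in both genotypes, and a lower level of Tnfrsf25 in HET cells. In KO cells, 4 of the 9 genes were called higher and 0 lower in CD62Llo than in CD62Lhi libraries, where 11.9% of the 11431 tested genes were called higher and 4.26% lower (limma on log2(FPKM + 1), Benjamini-Hochberg adjusted p below 0.05). In HET cells, 4 of the 9 were called higher and 1 lower, where 18.8% of all tested genes were called higher and 8.88% lower. Tnfrsf8, counted as higher in both genotypes, reached the 1 FPKM needed for testing in CD62Llo libraries only. The median log2 change of the 9 genes was 0.17 in KO cells and 0.18 in HET cells, against 0.05 in KO and 0.07 in HET cells for all tested genes. With median centring, which put the median of all genes at -0.03 in both genotypes, all these calls remained, Tnfrsf25 was added in KO cells, and higher genes made up 50.5% of all calls in KO and 45.0% in HET cells, instead of 73.7% in KO and 67.9% in HET cells. KO and HET fractions share no library, but they share the sort and 1 estimate of spread.

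Tnfrsf8, the receptor for CD30 ligand that activated T cells express, showed the widest change. It had 3.65, 3.84 and 3.21 FPKM in KO CD62Llo libraries, against 0.326, 0.382 and 0.218 FPKM in KO CD62Lhi libraries. In HET cells it had 5.87, 6.89 and 6.82 FPKM in CD62Llo libraries, against 0.297 and 0.407 FPKM in CD62Lhi libraries. The fractions were far apart in both genotypes. Mean FPKM was 11.6 times as high in KO CD62Llo as in KO CD62Lhi cells and 18.5 times as high in HET CD62Llo as in HET CD62Lhi cells. Adding 1 before taking logs compresses the change of a gene this low, and on that log2(FPKM + 1) scale the changes were 1.8 ± 0.09 (SE, adjusted p = 1.69e-05) in KO and 2.47 ± 0.10 (adjusted p = 3.43e-06) in HET cells; with 0.1 in place of 1 they were 3.18 in KO and 3.88 in HET cells. The lowest of these values rests on an estimated 16 reads in 1 library.

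Tnfrsf1b, the TNF receptor through which TNF expands Tregs, had 49.2, 55.0 and 51.5 FPKM in KO CD62Llo libraries, against 26.9, 26.8 and 26.3 FPKM in KO CD62Lhi libraries. In HET cells it had 73.2, 104 and 97.2 FPKM in CD62Llo libraries, against 28.9 and 31.6 FPKM in CD62Lhi libraries. Every CD62Llo library lay above every CD62Lhi library, and the CD62Lhi libraries of both genotypes lay close together. In KO cells the log2 change was 0.93 ± 0.11 (SE, adjusted p = 0.00063), and in HET cells it was 1.55 ± 0.13 (adjusted p = 3.9e-05). Its level relative to the death-domain receptor for the same ligand, Tnfrsf1a, was 2.58 to 3.33 in KO CD62Llo and 1.32 to 1.63 in KO CD62Lhi libraries, and 3.51 to 7.41 in HET CD62Llo and 1.42 to 1.76 in HET CD62Lhi libraries.

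Tnfrsf9 (CD137), which is induced by antigen receptor signals, had 55.5, 74.2 and 52.9 FPKM in KO CD62Llo libraries, against 30.4, 33.0 and 26.7 FPKM in KO CD62Lhi libraries. In HET cells it had 58.0, 64.4 and 79.9 FPKM in CD62Llo libraries, against 28.9 and 30.2 FPKM in CD62Lhi libraries. The fractions did not overlap, with a log2 change of 0.99 ± 0.15 (SE, adjusted p = 0.00206) in KO and 1.15 ± 0.16 (adjusted p = 0.000801) in HET cells. The Tnfrsf9 changes in KO and HET cells differed by -0.17 (95% interval -0.66 to 0.33). Tnfrsf4 (OX40), whose ligand sits on activated antigen-presenting cells, had 147, 164 and 158 FPKM in KO CD62Llo libraries, against 121, 110 and 114 FPKM in KO CD62Lhi libraries. In HET cells Tnfrsf4 had 189, 230 and 229 FPKM in CD62Llo libraries, against 135 and 148 FPKM in CD62Lhi libraries. The Tnfrsf4 fractions were separated in each genotype, and the lowest KO CD62Llo library lay within the range of the HET CD62Lhi libraries. It changed by log2 0.44 ± 0.08 in KO (SE, adjusted p = 0.00679) and by 0.60 ± 0.09 in HET cells (adjusted p = 0.00128). These 4 calls held in both genotypes under all 18 alternative settings. The Treg and myeloid marker sums moved in the same direction as these 4 genes in both genotypes, and their part in these differences was not tested.

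Tnfrsf25 (DR3) ran the other way. It had 60.2, 47.5 and 58.2 FPKM in KO CD62Llo libraries, against 79.8, 69.6 and 64.6 FPKM in KO CD62Lhi libraries. In HET cells it had 57.0, 45.3 and 52.3 FPKM in CD62Llo libraries, against 81.1 and 74.3 FPKM in CD62Lhi libraries. CD62Llo libraries lay below CD62Lhi libraries in both genotypes. The change missed the threshold in KO cells (log2 change of -0.36 ± 0.12 SE, adjusted p = 0.0636) and passed it in HET cells (-0.59 ± 0.13, adjusted p = 0.00832). The HET call was lost without HET CD62Lhi replicate 1 (adjusted p = 0.0702; 0.00252 to 0.0702 over the alternatives), and in KO cells the gene was called with median centring (adjusted p = 0.0335; 0.0155 to 0.201 over the alternatives). The B cell sum, the CD8 and NK sum (though not its member Klrb1c) and Pecam1 moved in the same direction as Tnfrsf25.

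The 4 remaining receptors were not called between fractions in either genotype with group means alone in the fit. Tnfrsf18 (GITR) had 173, 178 and 188 FPKM in KO CD62Llo libraries, against 169, 161 and 164 FPKM in KO CD62Lhi libraries, and 203, 233 and 211 FPKM in HET CD62Llo libraries, against 184 and 195 FPKM in HET CD62Lhi libraries. The Tnfrsf18 fractions did not overlap, yet the log2 changes were 0.12 (95% interval -0.01 to 0.26, adjusted p = 0.207) in KO and 0.18 (0.03 to 0.33, adjusted p = 0.0702) in HET cells; without HET CD62Llo replicate 1 the HET change was called (adjusted p = 0.0359; 0.0359 to 0.439 over the alternatives). Relative to its genomic neighbour, Tnfrsf4 stood at 0.843 to 0.922 of Tnfrsf18 in KO CD62Llo and 0.682 to 0.719 in KO CD62Lhi libraries, and at 0.933 to 1.08 in HET CD62Llo and 0.736 to 0.758 in HET CD62Lhi libraries. Cd27, a receptor of naive and memory T cells, lay within 190.3 to 256 FPKM throughout, with log2 changes of 0.17 (95% interval -0.01 to 0.35, adjusted p = 0.185) in KO and 0.13 (-0.06 to 0.33, adjusted p = 0.289) in HET cells; it was called in 1 of 18 alternatives in each genotype (adjusted p = 0.0467 to 0.473 in KO and 0.0372 to 0.787 in HET). Fas lay within 29.9 to 38.5 FPKM, with changes of 0.04 (-0.14 to 0.21) in KO and 0.13 (-0.06 to 0.32) in HET cells. Tnfrsf1a changed by -0.01 (-0.36 to 0.35) in KO and -0.20 (-0.60 to 0.20) in HET cells. Groups did not overlap for 6 of the 9 genes in KO cells, where 34.8% of all tested genes did not overlap, and for 8 of the 9 in HET cells, where 53.9% did not.

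**Figure D3:**
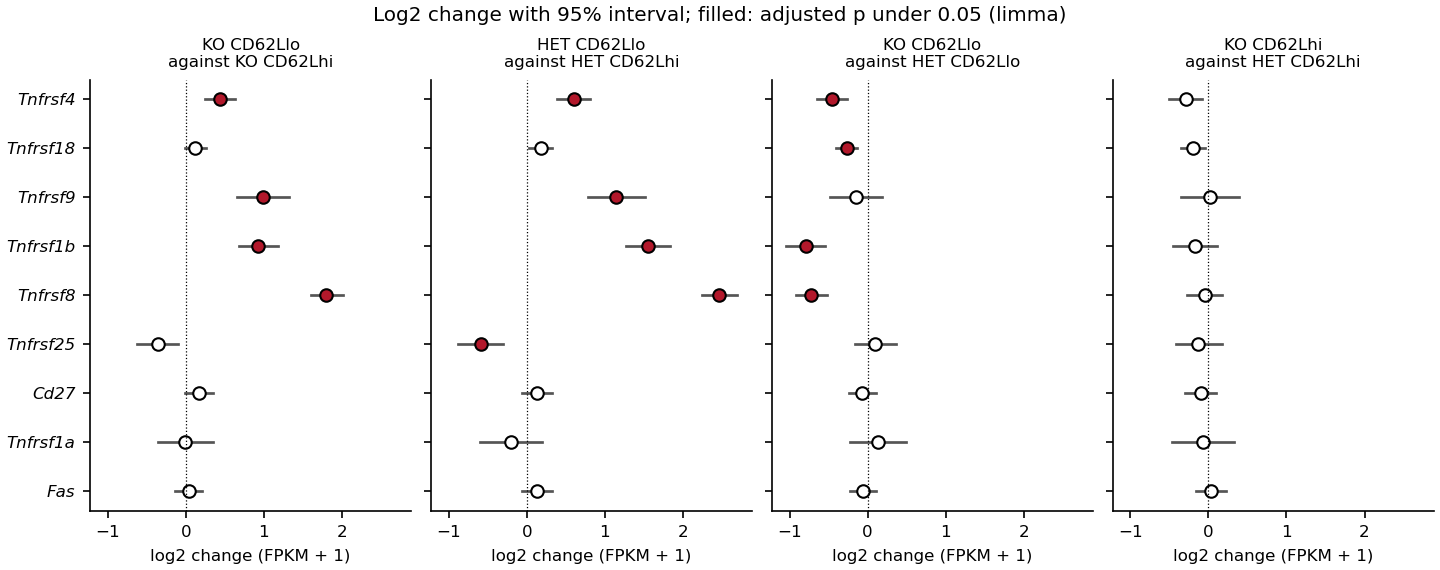
Log2 change of FPKM + 1 (points) with 95% interval (lines) for the 9 receptor genes in 4 comparisons, CD62Llo against CD62Lhi in KO and HET cells and KO against HET in CD62Llo and CD62Lhi cells; filled points have an adjusted p below 0.05. Tnfrsf8, Tnfrsf1b, Tnfrsf9 and Tnfrsf4 lie right of 0 in both fraction comparisons, and Tnfrsf1b, Tnfrsf8, Tnfrsf4 and Tnfrsf18 lie left of 0 in KO against HET CD62Llo cells.

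Within CD62Llo cells, 4 of the 9 receptors were lower in KO than in HET libraries and none was called higher, where 3.25% of all tested genes were called lower and 1.36% higher. They were Tnfrsf1b, Tnfrsf8, Tnfrsf4 and Tnfrsf18, which make up the 2 pairs of genomic neighbours on chromosome 4. Mean Tnfrsf1b was 51.9 ± 2.9 FPKM in KO CD62Llo and 91.4 ± 16.1 FPKM in HET CD62Llo libraries (SD, n = 3 each), a log2 change of -0.79 ± 0.11 (SE, adjusted p = 0.00705). Mean Tnfrsf8 was 3.57 ± 0.319 FPKM in KO CD62Llo and 6.53 ± 0.568 FPKM in HET CD62Llo libraries, a log2 change of -0.72 ± 0.09 (adjusted p = 0.0041). For both genes each KO library lay below each HET library, and KO CD62Llo cells stood between HET CD62Llo and HET CD62Lhi cells. Mean Tnfrsf4 was 157 ± 8.71 FPKM in KO CD62Llo and 216 ± 23.3 FPKM in HET CD62Llo libraries (log2 change of -0.46 ± 0.08, adjusted p = 0.0172). Mean Tnfrsf18 was 180 ± 7.76 FPKM in KO CD62Llo and 216 ± 15.5 FPKM in HET CD62Llo libraries (log2 change of -0.26 ± 0.06, adjusted p = 0.0416). Groups did not overlap for these 4 genes, where 20.2% of all tested genes did not overlap.

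The other 5 receptors did not pass. Tnfrsf9 changed by -0.15 (95% interval -0.48 to 0.18), Cd27 by -0.07 (-0.24 to 0.11), Fas by -0.06 (-0.23 to 0.11), Tnfrsf25 by 0.10 (-0.16 to 0.36) and Tnfrsf1a by 0.13 (-0.23 to 0.49), all with overlapping groups. The median log2 change of the 9 was -0.15, with -0.03 for all tested genes. Median centring, with higher genes at 44.6% of all calls instead of 29.5%, took the call of Tnfrsf18 (adjusted p = 0.0936) and kept the other 3. Over the 18 alternatives the log2 change was -0.94 to -0.69 for Tnfrsf1b, -0.85 to -0.66 for Tnfrsf8, -0.55 to -0.41 for Tnfrsf4 and -0.30 to -0.20 for Tnfrsf18. With a fit of only the 6 CD62Llo libraries, in which 109 genes were called instead of 526 (4.6% of those tested), Tnfrsf8 alone passed (adjusted p = 0.0332; 0.00547 to 0.0635 over the alternatives), and Tnfrsf1b was at 0.0628 (0.000862 to 0.0628), Tnfrsf4 at 0.0966 (0.00773 to 0.0966) and Tnfrsf18 at 0.177 (0.0315 to 0.177). Tnfrsf18 lost its call in 14 of 18 alternatives and Tnfrsf4 in 5, Tnfrsf1b only in that fit, and Tnfrsf8 only with the filter of 5 FPKM. The activation marker Cd44 differed between these groups by a log2 change of -0.43 (adjusted p = 0.0794), and its part in the receptor differences was not tested. The Treg sum (912.5 to 1019 FPKM in KO, 1038 to 1170 FPKM in HET CD62Llo libraries) and the plasma cell sum (29.1 to 37.9 in KO, 40.1 to 48.2 in HET) were lower in KO CD62Llo libraries without overlap, as the 4 receptors were. The plasma cell sum rested on Xbp1 and Prdm1, the only 2 genes of that list to reach 1 FPKM in any library. Both had lower means in KO CD62Llo cells, and Prdm1 was called lower. Pecam1 was higher (log2 change of 0.43, adjusted p = 0.00878), and the sums of B cell, CD8 and NK, myeloid, and red cell and platelet markers overlapped. Means in KO CD62Llo cells were higher for 8 of 10 B cell, 6 of 8 CD8 and NK and all 9 myeloid markers. They were higher for 2 of 6 red cell and platelet markers, and no marker of these lists was called. The part of these markers in the receptor differences was not tested. Without KO CD62Llo replicate 3 the changes were -0.79 for Tnfrsf1b (adjusted p = 0.0244), -0.66 for Tnfrsf8 (0.0161), -0.47 for Tnfrsf4 (0.05, not called) and -0.29 for Tnfrsf18 (0.0604).

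In CD62Lhi cells no receptor and none of the 11431 tested genes was called between KO and HET libraries in limma, with 328 genes (2.87%) at an unadjusted p below 0.05 and 5 genes called when only the 5 CD62Lhi libraries were fitted. Tnfrsf4, at log2 -0.29 (95% interval -0.50 to -0.08), and Tnfrsf18, at -0.20 (-0.35 to -0.05), had unadjusted p-values of 0.0111 and 0.0142 and adjusted p-values of 1.0. KO libraries lay below HET libraries without overlap for Tnfrsf4, Tnfrsf18 and Tnfrsf1b, 3 of the 9 genes, where 22.2% of all tested genes did not overlap. The log2 change of Tnfrsf1b was -0.17 (-0.46 to 0.11) and that of Tnfrsf8 was -0.05 (-0.28 to 0.18).

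The difference between genotypes in the fraction change was tested directly as an interaction. It was -0.67 ± 0.14 (SE, 95% interval -0.98 to -0.37) for Tnfrsf8 and -0.62 ± 0.17 (-0.99 to -0.24) for Tnfrsf1b on the log2 scale, negative where the rise was smaller in KO cells. Neither passed the adjustment over all genes (adjusted p = 0.24 for Tnfrsf8 and 0.341 for Tnfrsf1b), and 1 of the 11431 tested genes did, 0.00875%. The SE of Tnfrsf8 depended on the settings. Its interaction was -0.70 ± 0.27 with 0.1 added in place of 1 (limma adjusted p = 0.644). With the filter of 5 FPKM it was -0.67 ± 0.27 (limma adjusted p = 0.627). Tnfrsf1b was called without HET CD62Llo replicate 1 (adjusted p = 0.0477; 0.0477 to 0.792 over the alternatives). The other 7 interactions lay between -0.17 and 0.22, with 95% intervals that included 0.

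**Figure D4:**
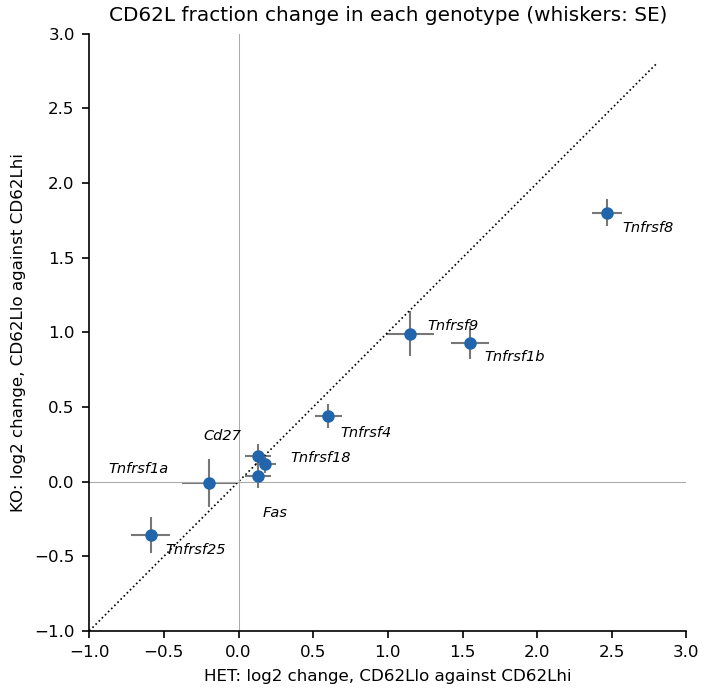
Log2 change of FPKM + 1 for CD62Llo against CD62Lhi cells in KO libraries (vertical axis) against that in HET libraries (horizontal axis) for each of the 9 receptor genes (points), with SE (whiskers) and the line of equal change (dotted). Tnfrsf8 and Tnfrsf1b lie farthest below the line, with interactions of -0.67 and -0.62, and Tnfrsf9 lies near it.

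Most tested ligands of the family were higher in CD62Llo cells. Of 17 TNF superfamily ligands 12 were tested, and 7 were called higher in KO CD62Llo and 8 in HET CD62Llo cells, with none called lower. Those are 58.3% of the tested ligands in KO and 66.7% in HET cells, where 11.9% in KO and 18.8% in HET of all tested genes were called higher. Testing needed 1 FPKM in at least 2 libraries, so a gene below that in 1 fraction could enter only through the other. Tnfsf13b entered so, at 0.102 to 0.191 FPKM in HET CD62Lhi and 0.189 to 0.315 FPKM in KO CD62Lhi libraries. Tnfsf4, called in KO cells, was at 0.345 to 0.456 FPKM in KO CD62Lhi libraries. The median ligand changed by log2 0.53 in KO and by 0.72 in HET cells, against 0.05 in KO and 0.07 in HET cells for all tested genes. Tnfsf14 (LIGHT) averaged 19.5 ± 2.24 FPKM in HET CD62Llo and 2.6 ± 0.0619 FPKM in HET CD62Lhi libraries, a log2 change of 2.50 (adjusted p = 8.78e-06). Tnfsf11 (RANKL) averaged 24.5 ± 2.25 FPKM in HET CD62Llo and 5.49 ± 0.33 FPKM in HET CD62Lhi libraries, a log2 change of 1.97 (adjusted p = 3.05e-05). Among the ligands of the 9 receptors themselves, Tnfsf8 (CD30 ligand) had 47.7, 50.4 and 35.4 FPKM in HET CD62Llo libraries, against 23.0 and 25.5 FPKM in HET CD62Lhi libraries, so CD30 and its ligand rose in the same sorted fraction. Tnfsf8 also rose in KO cells (log2 change of 0.72, adjusted p = 0.0109 in KO; 0.84, adjusted p = 0.00518 in HET). Tnf changed by 0.54 (adjusted p = 0.0546) in KO and 0.66 (adjusted p = 0.0261) in HET cells, and Tnfsf9, the CD137 ligand, by 0.48 (adjusted p = 0.0796) in KO and 0.79 (adjusted p = 0.0103) in HET cells. Tnfsf4 (OX40 ligand) was below 2 FPKM in all libraries and was called in KO cells (0.73, adjusted p = 0.0106). Lta was called higher in KO but not in HET cells, and the ligand of Fas is not described here. The ligands of GITR, CD27 and DR3 (Tnfsf18, Cd70 and Tnfsf15) stayed below 1 FPKM in all 11 libraries and were not tested. Tnfsf13b (BAFF), which myeloid cells make, rose in both genotypes (log2 change of 1.17, adjusted p = 0.000464 in KO; 1.23, adjusted p = 0.000322 in HET), beside the higher myeloid marker sum. The part of myeloid cells in the Tnfsf13b difference was not tested. Between KO and HET CD62Llo cells, Tnfsf14 alone of the 12 was called, with 14.4, 15.1 and 10.3 FPKM in KO libraries, against 21.9, 17.5 and 19.0 FPKM in HET libraries (log2 change of -0.53, adjusted p = 0.0485), and it kept that call in 2 of 18 alternatives (adjusted p = 0.0334 to 0.183).

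Of 15 receptor adaptors and signal transducers, 2 were called lower (Traf4 and Casp8) in KO CD62Llo than in KO CD62Lhi cells, and 1 was called higher (Tank) and 3 lower (Traf4, Casp8 and Map3k14) in HET cells. The lower ones are 13.3% of the list in KO and 20.0% in HET cells, against 4.26% in KO and 8.88% in HET for all tested genes, and the 1 higher gene is 6.67% of the list in HET cells, below the 18.8% of all tested genes. Traf4 averaged 9.64 ± 0.429 FPKM in HET CD62Llo and 15.9 ± 1.6 FPKM in HET CD62Lhi libraries (log2 change of -0.67, adjusted p = 0.000415). Casp8, the initiator caspase of Fas signalling, averaged 70.3 ± 2.26 FPKM in HET CD62Llo and 94.9 ± 0.558 FPKM in HET CD62Lhi libraries (log2 change of -0.43, adjusted p = 0.000694). Traf1, a target and adaptor of NF-kappaB-linked receptors, was not called. Of 16 NF-kappaB subunits, inhibitors and kinases, 5 were called higher and 1 lower in KO and 6 higher and 1 lower in HET CD62Llo cells. The higher ones are 31.2% of the list in KO and 37.5% in HET cells, against 11.9% in KO and 18.8% in HET for all tested genes, and the 1 lower gene, Ikbkb, is 6.25% of the list, against 4.26% in KO and 8.88% in HET. Both subunits of the noncanonical pathway that CD30, OX40 and TNFR2 can engage were among the higher ones, Relb with a log2 change of 0.48 (adjusted p = 0.00448) in KO and 0.67 (adjusted p = 0.000739) in HET cells, and Nfkb2 with 0.43 (adjusted p = 0.000296) in KO and 0.51 (adjusted p = 9.79e-05) in HET cells. The subunit Nfkb1 was also called higher in both genotypes, so Relb and Nfkb2 were not the only subunits called. Map3k14 of the adaptor and transducer list went the other way in HET cells (log2 change of -0.41, adjusted p = 0.0357). The feedback inhibitors Tnfaip3 (0.34 in KO and 0.48 in HET cells) and Nfkbie (0.29 in KO and 0.45 in HET cells) were called as well. Nfkb2 was also the 1 gene of this group called lower in KO than in HET CD62Llo cells, with 40.2, 40.1 and 39.9 FPKM in KO libraries, against 46.2, 48.0 and 48.3 FPKM in HET libraries (log2 change of -0.24, adjusted p = 0.0184), a call it kept in 13 of 18 alternatives (adjusted p = 0.0148 to 0.0963). Of 19 other receptors of the superfamily 10 were tested; 1 was called lower in KO CD62Llo cells, and 2 were called higher and 4 lower in HET CD62Llo cells. The lower ones are 40.0% and the higher ones 20.0% of the tested list in HET cells, against 8.88% lower and 18.8% higher for all tested genes. The 4 lower in HET cells were Tnfrsf13c (BAFF receptor, -1.28, adjusted p = 0.0233), Relt (-0.73, adjusted p = 0.00201), Cd40 (-0.64, adjusted p = 0.0176) and Tnfrsf12a (-0.52, adjusted p = 0.0348), and Tnfrsf13c was the 1 lower in KO cells (-1.26, adjusted p = 0.0244). Relt was the most abundant of the 4, averaging 12.9 ± 1.61 FPKM in HET CD62Llo and 21.8 ± 0.493 FPKM in HET CD62Lhi libraries. Tnfrsf13c and Cd40 are also B cell receptors, and the B cell marker sum was lower in the same cells. The part of B cells in the differences of Tnfrsf13c and Cd40 was not tested.

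**Figure D5:**
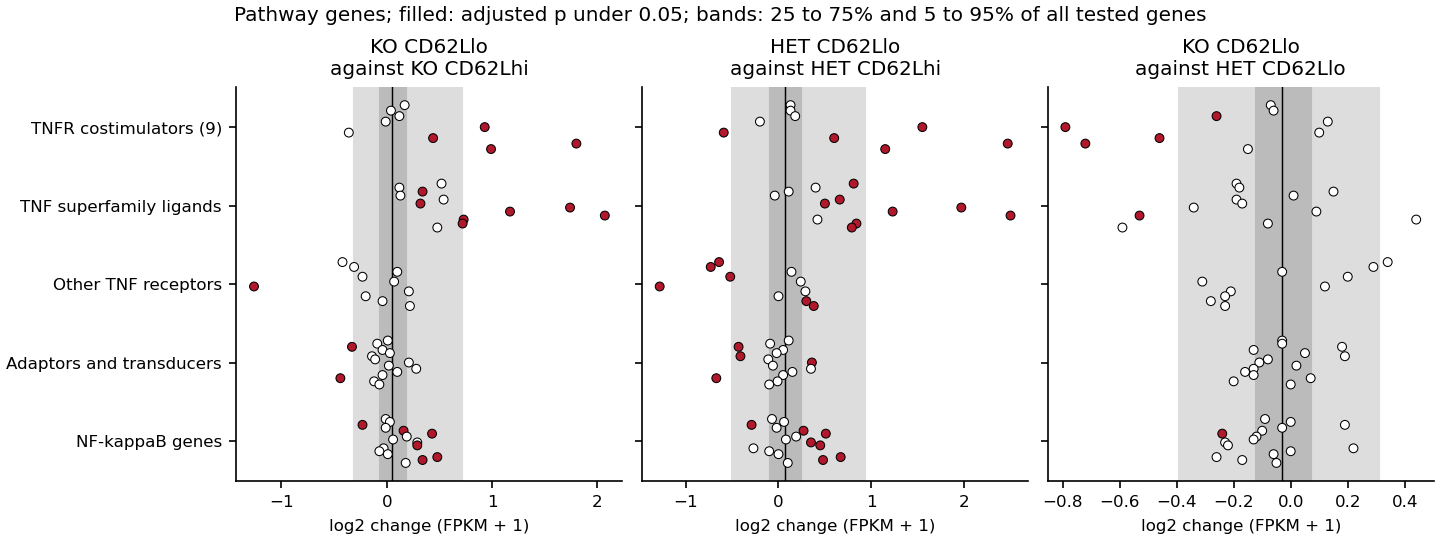
Log2 change of FPKM + 1 of each tested gene (points, filled at adjusted p below 0.05) in the 9 receptors, the ligands, the other receptors, the adaptors and transducers and the NF-kappaB genes, in 3 comparisons with their own horizontal scales. Dark and light bands hold the middle 50% and 90% of all tested genes and the line is their median. In the fraction comparisons the ligands lie mostly right of the line, while most adaptors and transducers lie near it. Of the NF-kappaB genes, Relb, Nfkb2, Tnfaip3 and Nfkbie lie right of the dark band.

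For the 3 receptors whose group means spread over at least 1 log2 unit, the genes with the most similar profile over the 11 libraries were looked up among 7678 genes averaging at least 5 FPKM, by the root mean square difference of centred log2 values. Tnfrsf1b was nearest to Lamc1 (0.088) and Bcl2a1a (0.110), with a median of 0.685 over all candidates; Bcl2a1a has near-identical copies, so its reads may be split among them. Tnfrsf9 was nearest to Ptpn22 (0.114) and Sec14l1 (0.126), with a median of 0.54. Tnfrsf8 was nearest to Glrx (0.154) and Atp2b4 (0.185), with a median of 1.08. The log2 values had 1 FPKM added, which compresses the change of Tnfrsf8, so its match holds on that scale only. Mean Tnfrsf8 was 3.57 FPKM in KO CD62Llo and 0.309 FPKM in KO CD62Lhi libraries. It was 6.53 FPKM in HET CD62Llo and 0.352 FPKM in HET CD62Lhi libraries, a wider change in FPKM than that of Glrx. Glrx averaged 44.7 FPKM in KO CD62Llo and 13.9 FPKM in KO CD62Lhi libraries, and 72.5 FPKM in HET CD62Llo and 14.4 FPKM in HET CD62Lhi libraries. These are descriptions over libraries that share the same sort. In the authors' deposited table of values pooled by group, 35 of the 36 comparisons of the 9 genes had the same direction as the per-library means, the exception being Fas between KO fractions.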

How the data were processed

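RNA of sorted Tregs was sequenced from poly A-selected libraries on an Illumina HiSeq as single reads of 50 bases, per the labels. The deposited values are FPKM (fragments per kilobase of transcript, scaled to each library's mapped fragments), 1 per gene and library; the submitters' processing notes name Cufflinks 2.1.1, TopHat, FastQC and CASAVA 1.8.2, with mm10 as build. FPKM are not counts, so limma 3.58.1 (R 4.3.3) with a mean-variance trend was fitted to log2(FPKM + 1) of the 11431 symbols with at least 1 FPKM in at least 2 of 11 libraries, with 4 group means, two-sided tests, Benjamini-Hochberg adjustment over all tested symbols and a threshold of 0.05; the procedure was tested on simulated data. Entries sharing a symbol (250 symbols) were summed. In low FPKM values of single-transcript genes, 57.0% to 68.1% lay within 5% of whole-read steps, which implies an estimated 13000000 to 53400000 fragments per library. Intervals on FPKM from counting were not computed.

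All 9 receptors, the label checks (1 of which is not reported here) and, per comparison, up to 4 called genes of a pathway list by size of change, or the 2 most abundant if none was called, could be named, and not every one of these is; the likeness rule is given with its result, and naming ligands of the 9 receptors outside that rule was a choice made with their values in view. The members and lists were chosen with earlier results of these data known. Same-numbered KO and HET CD62Llo libraries deviated together weakly (correlations of 0.148 to 0.165 over genes), against -0.237 to 0.084 for differently numbered ones. The labels do not say what a replicate number marks, and the reported tests used group means without a replicate block. A fit with that block changed no receptor call between KO and HET CD62Llo cells. Alternatives covered the pseudocount, filters, scaling, the libraries fitted, the replicate block and leaving out each library.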

Additional observations from a re-analysis of the deposited data

How the results depend on the processing

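The calls of Tnfrsf8, Tnfrsf1b, Tnfrsf9 and Tnfrsf4 between fractions kept their direction and passed in both genotypes under all 18 alternatives; among all member results, 752 of the alternative values kept direction and call, 22 lost a call and 6 gained one. With the replicate block, Tnfrsf25 (adjusted p = 0.0155) and Cd27 (0.0467) were called between KO fractions and Cd27 (0.0372) between HET fractions. Deviations of same-numbered libraries correlated at 0.068 to 0.178 between KO fractions and at 0.073 to 0.135 between HET fractions. The labels do not say whether same-numbered libraries share an animal or day. The block changed no other member call. Members called lower between KO fractions numbered 1 with median centring, where 987 of all tested genes were called lower instead of 487. They numbered 1 with the replicate block, for which the share of all genes is not given. Members called lower in KO against HET CD62Llo cells numbered 2 with the filter of 5 FPKM, for which the share of all genes is likewise not given. They numbered 1 with only the compared libraries, which called 109 genes in all there and 5 in CD62Lhi cells. With no filter the interaction called 4 genes. Leaving out 1 library gave 1186 to 1976 genes called between KO fractions, 1920 to 3332 between HET fractions (0 to 1 member lower), 177 to 613 in KO against HET CD62Llo cells (2 to 4 members lower), 0 to 5 in CD62Lhi cells and 1 to 5 for the interaction (0 to 1 member lower). Where 1 HET CD62Lhi library was left, it was assumed to vary like the other groups. Values that changed sign were all of members not called. Fas between KO fractions was -0.0042 with quantile normalization, -0.04 with median centring and -0.02 to 0.09 with 1 library left out. Tnfrsf1a in KO against HET CD62Lhi cells was 0.05 with the replicate block and -0.16 to 0.02 with 1 library left out, and the Cd27 interaction was -0.02 with the replicate block and -0.04 to 0.1 with 1 library left out. With 1 library left out, Tnfrsf1a was -0.09 to 0.1 between KO fractions and -0.03 to 0.29 in KO against HET CD62Llo cells, where Fas was -0.11 to 0.01 and Cd27 -0.12 to 0.0014. In KO against HET CD62Lhi cells, Tnfrsf9 was -0.05 to 0.1, Tnfrsf8 -0.11 to 0.01 and Fas -0.02 to 0.09. The cause of these changes was not tested. The fit of only the compared libraries could not be made for the interaction, which compares all groups. Depth limits Tnfrsf8 most, at an estimated 16 to 700 reads per library.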
